A study of Homo sapiens with 3 samples.

Results

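The 9 genes NQO1, GCLC, GCLM, TXNRD1, HMOX1, SRXN1, SLC7A11, AKR1B10 and AKR1C1 encode antioxidant and detoxifying proteins that are known targets of the transcription factor NRF2. Their expression was followed from H1975 to its osimertinib-resistant derivatives OR1 and OR2. Members were taken as every non-control probe that carries one of these 9 symbols as its gene name, which gave 12 probes of the 58200 on the array and 9 genes of 43316. H1975 is a non-small cell lung cancer cell line that harbors the L858R and T790M changes in EGFR and is sensitive to osimertinib, an EGFR tyrosine kinase inhibitor. OR1 and OR2 were established independently from H1975 by raising the dose of osimertinib in steps up to 2 μmol/L over 4 months, and their resistance is described as stable without the drug. The methods call each of them a clone, and whether osimertinib was in the medium when RNA was taken is not given in the sources used here. Total RNA of each line was hybridized to 1 Agilent single-colour array.

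NRF2, the product of NFE2L2, is held at a low level by KEAP1, an adaptor that passes it to a CUL3 ubiquitin ligase. When oxidants or electrophiles modify KEAP1, NRF2 accumulates, pairs with a small MAF protein and binds antioxidant response elements, where BACH1 competes with it as a repressor. In lung adenocarcinoma this control can be lost by mutation of KEAP1 or NFE2L2, and cells then express the pathway without an oxidant. The target genes supply cystine, glutathione and reduced thioredoxin, break down heme and reduce quinones and carbonyls.

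HMOX1 and AKR1B10 were the members that fell in the resistant lines, and no member rose past the ratio of 2. HMOX1 was 6.73-fold lower in OR1 and 8.30-fold lower in OR2 than in H1975, and AKR1B10 was 6.06-fold lower in OR1 and 2.47-fold lower in OR2. The other 7 members lay between the ratios of 0.5 and 2 in both lines, from 0.522 for NQO1 to 1.95 for SRXN1, both in OR1. A ratio here is the intensity of a probe in a resistant line divided by that in H1975, after every array was scaled on its 75th percentile, and the ratios of at least 2 and at most 0.5 are those of the study's methods. Each line had a single array, so that there was neither a replicate nor a test. The technical SD given with a ratio comes from the error estimate of the scanner software. Its median over the members was 0.20 on the log2 scale, and it reflects how well 1 RNA was read and leaves out differences between cultures. The ratios of OR1 and OR2 share the H1975 array, so that an error in that array moves both of them the same way.

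In OR1, 0 of the 9 members had a ratio of at least 2, against 9.17% of all genes tested, and 2 had a ratio of at most 0.5, against 9.58%. In OR2, 0 members were higher, against 7.72% of genes, and the same 2 were lower, against 8.70%. For both lines at once, 0 members were higher (5.09% of genes) and HMOX1 and AKR1B10 were lower (6.32% of genes). With 9 genes, each gene is 11.1% of the list, so these counts describe the members and do not set the list apart from other genes. Over the members the median log2 ratio was -0.18 in OR1 and -0.08 in OR2, beside 0.03 and -0.05 over the 18591 genes that all arrays measured. Between the resistant lines, AKR1B10 was the member with a ratio of at least 2 for OR2 over OR1, against 2.48% of genes, and 0 members had a ratio of at most 0.5, against 2.89%.

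The members were read with probes of 60 bases. Of the 12 probes, 11 were well above background on all 3 arrays by the call of the scanner software, and each of the 9 genes had at least 1 of them. The stretches shown here are the first 30 bases of probes for HMOX1, AKR1B10 and AKR1C1 (probe 1), the genes whose results rest on repeated spots or on more than 1 probe. Positions are on hg19.
HMOX1: tggggagggaggtgtttaacggcactgtgg
AKR1B10 probe 1: atcctctcatttggaagactatcccttcga
AKR1B10 probe 2: atcacagtgaacttagtcctgttatagacg
AKR1C1 probe 1: aatggattcgaaatatcagtgtgtgaagct
The GCLM probe shared an exact run of at least 15 bases on the same strand with 10 probes of other genes, AKR1C1 probe 1 shared one with 1 such probe (for TUFM), and none of the other 10 member probes did. How much of the GCLM signal came from other transcripts was not tested.

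The overall state of the arrays and cells was as follows. The 75th percentile of the intensities lay between 138 and 162, no spot was saturated, and 45.6 to 45.9% of probes were well above background. The label of a lung carcinoma line was checked with epithelial genes. KRT8 and KRT18, keratins of simple epithelia, lay at ratios between 0.806 and 1.12 in OR1 and OR2, whereas 5 of the 7 epithelial markers (KRT7, KRT19, EPCAM, CDH1 and CLDN4) fell in both lines. The summed scaled intensity of the 7 markers was 442941 in H1975, against 174208 in OR1 and 188447 in OR2. Of 7 fibroblast markers, DCN, COL3A1, PDGFRA and THY1 did not rise well above background in any line, nor did the T cell marker CD3E among 3 leukocyte markers. The collagen gene COL1A1 gave a scaled intensity of 445 for H1975, 645 for OR1 and 81.6 for OR2, and COL1A2 gave 193, 31.2 and 5.31, the last not well above background. LUM, a matrix proteoglycan, was above background in OR1 alone (65.8), and the leukocyte marker PTPRC lay between 19.3 and 22.8 in the lines. Of 3 genes of the lung adenocarcinoma lineage, NKX2-1 gave 804 for H1975, 202 for OR1 and 1097 for OR2, NAPSA had ratios of 0.770 and 1.57, and SFTPB stayed at background level. NKX2-1, the lineage factor of lung adenocarcinoma, thus differed 5.42-fold between the resistant lines. CD14, a monocyte receptor that some epithelial cells also express, rose in both lines (4.25 and 6.56). These 5 epithelial markers and the 2 lower members were thus all lower in both resistant lines than in H1975. The part of these markers in the results on HMOX1 and AKR1B10 was not tested. In RNA from whole cultures, fewer cells that express a gene and less RNA per cell cannot be told apart.

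**Figure D1:**
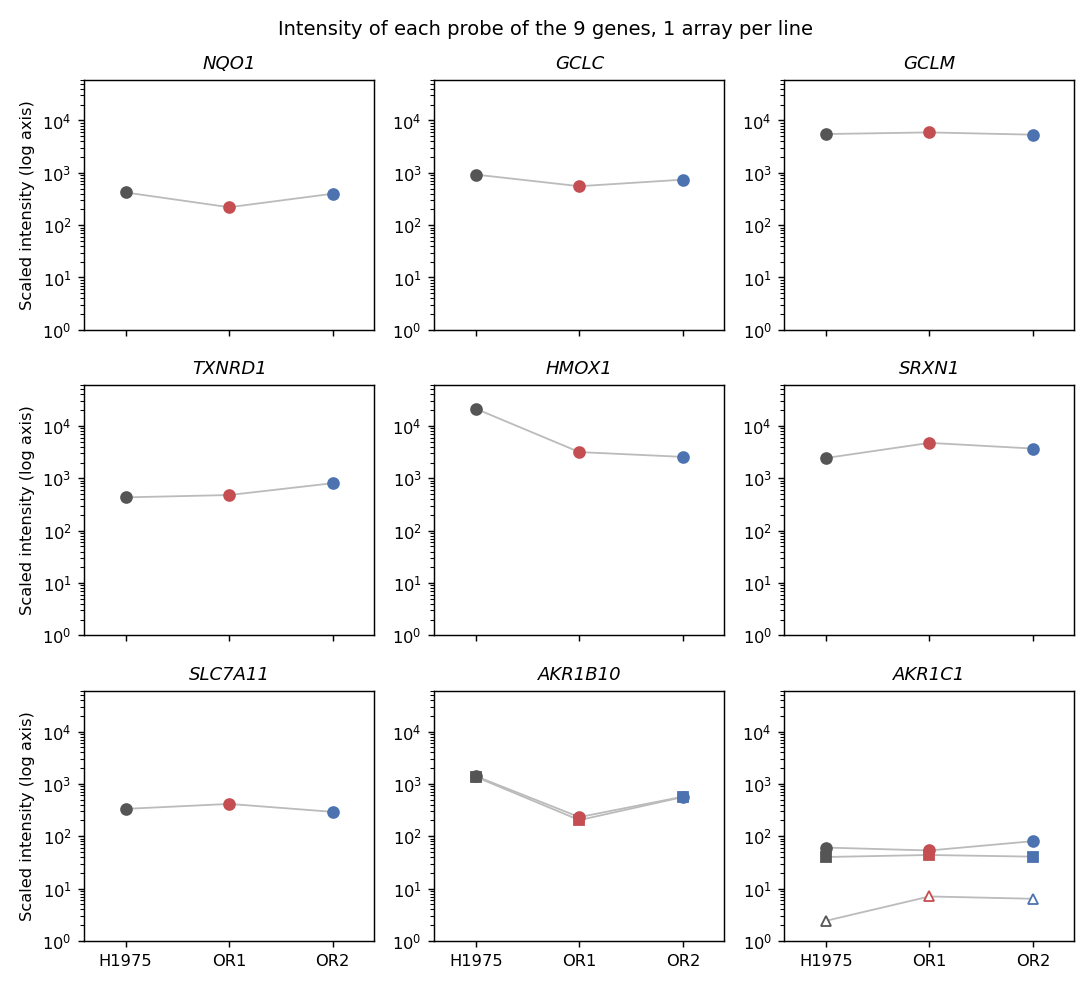
Scaled intensity (log axis) of each probe of the 9 genes on the array of H1975, OR1 and OR2. Circles, squares and triangles are the first, second and last probe of a gene, and open symbols were not well above background. HMOX1 stood at 21347 in H1975, against 3174 in OR1 and 2571 in OR2, and both AKR1B10 probes were lowest in OR1.

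SLC7A11, GCLC and GCLM act at the start of glutathione synthesis. SLC7A11 (NM_014331) encodes the exchange subunit of the cystine and glutamate antiporter, which brings in the cystine from which cysteine is made. The SLC7A11 probe lies on the minus strand of chromosome 4 from 139085433 to 139085492. It read 333 in H1975, against 414 in OR1 and 292 in OR2, in units of scaled intensity. OR1 was the highest of the lines and OR2 the lowest, at ratios of 1.24 and 0.878 to H1975 (technical SD 0.20 on the log2 scale in each). OR2 differed from H1975 by less than the technical SD, and SLC7A11 in OR1 went below 1, to 0.822, when arrays were scaled on spike-in probes.

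GCLC (NM_001498, chromosome 6 from 53362197 to 53362256) encodes the catalytic subunit of glutamate-cysteine ligase, the rate-limiting enzyme of glutathione synthesis. GCLC reached a scaled intensity of 924 in H1975, against 555 in OR1 and 740 in OR2. H1975 was the highest and OR1 the lowest, with ratios of 0.601 in OR1 (technical SD 0.20 on the log2 scale) and 0.801 in OR2 (technical SD 0.20). Neither ratio reached 0.5, but the OR1 ratio was 0.398 with spike-in scaling. GCLM (NM_002061, chromosome 1) encodes the modifier subunit that raises the activity of the same enzyme. The GCLM probe gave scaled intensities of 5503 (H1975), 5914 (OR1) and 5349 (OR2), and the ratios of 1.07 and 0.972 were both within the technical SD of 1. The subunits thus did not move together in OR1, where the log2 ratio was -0.74 for GCLC and 0.10 for GCLM.

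TXNRD1 and SRXN1 keep the thioredoxin and peroxiredoxin cycle reduced. TXNRD1 (NM_001261445, chromosome 12 from 104732949 to 104733008) encodes cytosolic thioredoxin reductase, a selenoprotein that draws electrons from NADPH. The scaled intensity of TXNRD1 was 433 in H1975, close to the 480 of OR1, and 808 in OR2. H1975 and OR1 lay within the technical SD of each other, at a ratio of 1.11 that went to 0.733 with spike-in scaling, and OR2 stood above both. Its ratio was 1.86 over H1975 (log2 0.90, technical SD 0.20) and 1.68 over OR1. SRXN1 (NM_080725, chromosome 20 from 627563 to 627622) encodes sulfiredoxin, which restores peroxiredoxins whose active cysteine has been over-oxidized. H1975 gave a scaled intensity of 2444 for SRXN1, OR1 one of 4758 and OR2 one of 3705. Both resistant lines were above H1975, with a ratio of 1.95 in OR1 (log2 0.96, technical SD 0.20) and 1.52 in OR2 (log2 0.60, technical SD 0.20). SRXN1 thus came nearest to the ratio of 2 without passing it, and its OR1 ratio ranged from 1.29 with spike-in scaling to 1.98 with quantile normalization.

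HMOX1 encodes heme oxygenase 1, the inducible enzyme that opens heme to biliverdin, carbon monoxide and iron, and its gene is a classical site of BACH1 repression. The HMOX1 probe (NM_002133) lies on the plus strand of chromosome 22 from 35790122 to 35790181. It was spotted 10 times on each array. Its scaled intensity over the spots ran from 19879 to 22326 in H1975 with a median of 21461, from 2897 to 3296 in OR1 with a median of 3193, and from 2500 to 2741 in OR2 with a median of 2559. The spots of H1975 did not overlap those of either resistant line, nor did OR1 overlap OR2. The SD between spots was 0.059 (H1975), 0.053 (OR1) and 0.038 (OR2) on the log2 scale, and these spots are repeated readings of the same RNA. The ratio was 0.149 in OR1 (log2 -2.75, technical SD 0.20) and 0.120 in OR2 (log2 -3.05, technical SD 0.20). Of the 18591 genes that all 3 arrays measured well above background, 0.742% had a lower ratio than HMOX1 in OR1 and 0.366% in OR2. Over the alternative scalings and background corrections the ratio stayed between 0.0984 and 0.157 in OR1 and between 0.119 and 0.135 in OR2. OR2 over OR1 was 0.810, a log2 difference of -0.30. That order depended on the scaling. Without scaling the ratios to H1975 were 0.130 in OR1 and 0.124 in OR2. With spike-in scaling they were 0.0984 in OR1 and 0.127 in OR2, the reverse order.

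**Figure D2:**
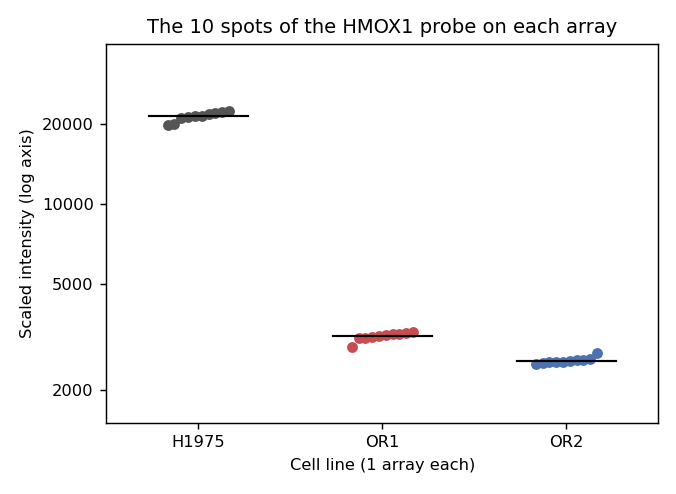
Scaled intensity (log axis) of the 10 spots of the HMOX1 probe on the array of each line, ordered by value, with a black bar at the median. The H1975 spots lie at 19879 or above and those of OR1 and OR2 at 3296 or below, and the spots show the technical spread within 1 RNA sample per line.

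NQO1, AKR1B10 and AKR1C1 reduce quinones and carbonyls. NQO1 (NM_000903, chromosome 16 from 69744274 to 69744333) encodes the quinone reductase that is widely used as a readout of NRF2. Its scaled intensity was 421 in H1975 and 399 in OR2, against 220 in OR1. H1975 and OR2 lay within the technical SD of each other, at a ratio of 0.948, and OR1 was the low line. The OR1 ratio was 0.522 (log2 -0.94, technical SD 0.21), just short of 0.5, and NQO1 in OR2 was 1.81 times its level in OR1. The OR1 ratio of NQO1 was 0.485 with median scaling, 0.458 without scaling and 0.346 with spike-in scaling, so that its place on either side of 0.5 depends on the scaling.

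AKR1B10 (NM_020299) encodes an aldo-keto reductase that takes retinal and lipid aldehydes and is often expressed in smoking-related lung carcinoma. It has 2 probes on the plus strand of chromosome 7, from 134225799 to 134225858 and from 134225939 to 134225998. Probe 1 gave a scaled intensity of 1404 for H1975, 232 for OR1 and 569 for OR2, and probe 2 gave 1361, 203 and 560. H1975 was the highest and OR1 the lowest on both probes. The ratio in OR1 was 0.165 on probe 1 and 0.149 on probe 2, and in OR2 it was 0.405 and 0.411 (technical SD 0.20 to 0.21 on the log2 scale). The probes differed by less than the technical SD in each line. The ratio of AKR1B10 remained below 0.5 in both lines and on both probes under every scaling and background correction tried. AKR1B10 was also the member that differed most between the resistant lines, at 2.45 times the OR1 level in OR2 on probe 1 and 2.75 times on probe 2. The probe for the close relative AKR1B15 had ratios of 0.155 and 0.337, but it also lists the AKR1B10 transcript, so the genes cannot be told apart there. AKR1B1, the aldose reductase of the same subfamily, had ratios of 1.01 and 0.970.

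AKR1C1 encodes a hydroxysteroid dehydrogenase of the aldo-keto reductase family with near-identical copies beside it on chromosome 10. The AKR1C1 probe 1 (NM_001353, from 5005636 to 5005695) also lists AKR1C2, so that its signal may come from either gene. It gave a scaled intensity of 60.7 for H1975, 53.4 for OR1 and 80.5 for OR2, with ratios of 0.880 and 1.33 (technical SD 0.22 on the log2 scale). Probe 2 lists AKR1C1 alone and gave 40.1 for H1975, 43.8 for OR1 and 40.7 for OR2, ratios of 1.09 and 1.01. All 3 lines lay within the technical SD (0.25 to 0.26) of each other on probe 2, and only probe 1 set OR2 above the other lines. Probe 3 (from 5011936 to 5011995), which stands for another annotated transcript, did not rise well above background in any line. The neighbouring copy AKR1C3, an enzyme of androgen and prostaglandin metabolism, had ratios of 1.54 in OR1 and 1.36 in OR2.

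**Figure D3:**
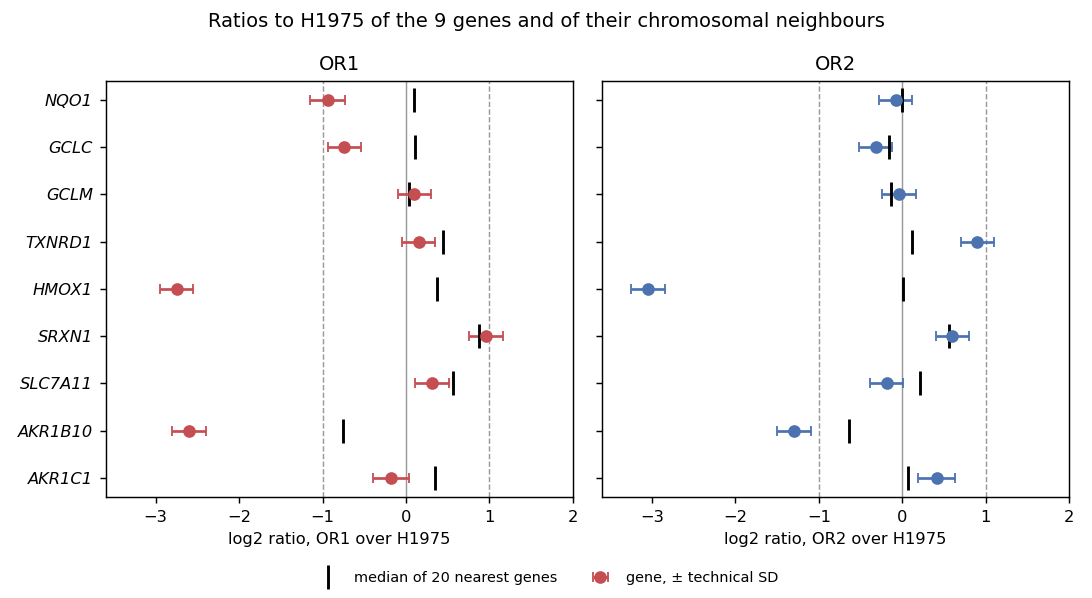
Log2 ratio to H1975 of each of the 9 genes (points, bars are ± 1 technical SD) in OR1 and OR2, with the median log2 ratio of the 20 nearest genes on the chromosome (black bars). Dashed lines mark ratios of 0.5 and 2. SRXN1 lies on the median of its neighbours (0.96 against 0.88 in OR1), and HMOX1 lies far below it (-2.75 against 0.37).

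The 20 genes nearest to each member by probe position were set beside it, since genes next to a member can move with it. For the neighbours of HMOX1 the median log2 ratio lay at 0.37 in OR1 and 0.01 in OR2, and none of them fell in both lines. The neighbours of AKR1B10, within 1.11 Mb on chromosome 7, had medians of -0.75 (OR1) and -0.64 (OR2), and 3 of the 20 fell in both lines. One of these is AKR1B15, whose probe also lists an AKR1B10 transcript, and without it the medians were -0.69 and -0.64 and 2 of 19 fell. AKR1B10 itself was at -2.60 and -1.30. The neighbours of SRXN1 had medians of 0.88 and 0.56, close to the 0.96 and 0.60 of SRXN1, and 3 of them rose in both lines. Of all genes tested, 6.32% fell and 5.09% rose in both lines, and these small neighbour counts were not tested against those shares. In OR1 the neighbours of NQO1 (0.10) and GCLC (0.11) lay near 0, while the members were at -0.94 and -0.74. The TXNRD1 neighbours were at 0.44 in OR1 and 0.12 in OR2, and TXNRD1 at 0.15 and 0.90. For SLC7A11 the neighbours were at 0.56 and 0.21 and the gene at 0.31 and -0.19. For GCLM they were at 0.04 and -0.14 and the gene at 0.10 and -0.04. For AKR1C1 they were at 0.35 and 0.07 and the gene, on probe 1, at -0.18 and 0.41. Expression of neighbours is not a measurement of gene copy number, which was not analysed here.

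No regulator of the pathway was past the ratio of 0.5 or 2 with the 75th percentile scaling. NFE2L2 itself, which encodes NRF2, could not be followed, since its single probe stayed at background level on every array (scaled intensity 2.91, 3.06 and 2.88 in H1975, OR1 and OR2). KEAP1 gave a scaled intensity of 1738 for H1975, 3445 for OR1 and 3088 for OR2, ratios of 1.98 and 1.78. The OR1 ratio of KEAP1 ranged from 1.31 with spike-in scaling to 2.05 with quantile normalization. Its 20 neighbours on chromosome 19 had median log2 ratios of 0.83 and 0.61, near the 0.99 and 0.83 of KEAP1. BACH1, the repressor, gave 314 for H1975, 514 for OR1 and 559 for OR2, ratios of 1.64 and 1.78 on its brighter probe. Both resistant lines were above H1975 for KEAP1 and BACH1 by more than the technical SD of 0.20 on the log2 scale, except that the OR1 ratio of BACH1 was 1.08 with spike-in scaling.

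Among the partners, MAFF had ratios of 0.866 in OR1 and 0.583 in OR2, MAFG 0.829 and 0.748, and MAFK 1.13 and 1.17. The small MAF proteins lack an activation domain of their own and serve NRF2 and BACH1 alike. CUL3 and RBX1, subunits of the ligase that marks NRF2 for degradation, had ratios of 0.842 and 0.869 and of 0.893 and 0.746. SQSTM1, the autophagy receptor p62 that binds KEAP1 and is itself an NRF2 target, had ratios of 0.626 and 0.775, the former 0.414 with spike-in scaling. The related factors NFE2L1 and NFE2L3 had ratios of 1.08 and 1.18 and of 0.981 and 0.903. BACH2, a repressor best known in lymphocytes, lay near background. On its brightest probe OR1 was at least 1.21 times and OR2 at least 1.25 times H1975. Another probe gave at most 0.775 in OR1 and a measured 0.952 in OR2, so that the probes gave no common direction.

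**Figure D4:**
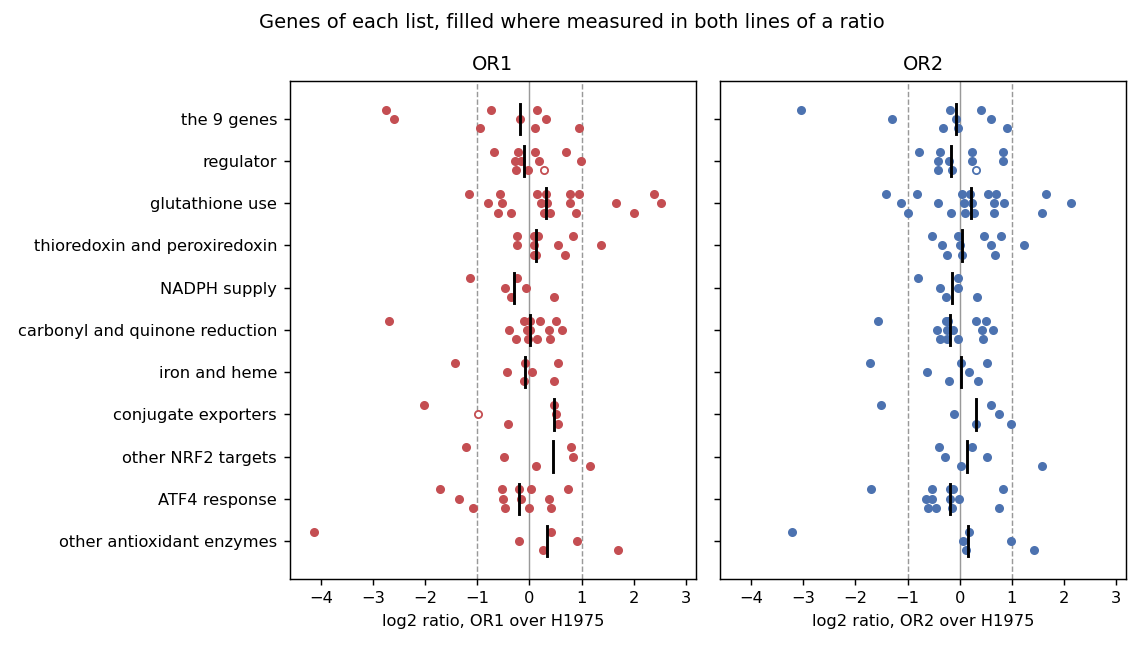
Log2 ratio to H1975 of each gene of the member list and of 10 related lists in OR1 and OR2. Filled points were well above background in both lines of the ratio, open points are bounds, the black bar is the list's median over genes that all arrays measured well above background, and dashed lines mark ratios of 0.5 and 2. Most genes of each list lie between the dashed lines, and the member list has 2 points far to the left in OR1.

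Further genes around the pathway were counted in 9 lists. Of 23 genes for glutathione use, 20 could be measured above background in every line, and 3 rose in both lines. GSTA4, a transferase for aldehydes from lipid peroxidation, gave a scaled intensity of 108 for H1975, 619 for OR1 and 473 for OR2, ratios of 5.73 and 4.38. GSTM2, a mu-class transferase, had ratios of 4.01 and 3.14 (2.46 and 2.04 with normexp, a model-based background correction), and GLRX, glutaredoxin, 3.19 and 2.99. No gene of the list fell in both lines, though GGCT fell in OR1 and GGT1 and GSTP1 in OR2 (all 3 named after their values were seen). GGCT was at 0.450 in OR1 and at 0.501 in OR2, just short of the limit. The list's median log2 ratio was 0.32 in OR1 and 0.22 in OR2. Of 11 thioredoxin and peroxiredoxin genes, PRDX2, a cytosolic peroxiredoxin, rose in both lines (2.58 and 2.34), though to 1.71 in OR1 with spike-in scaling, and none fell.

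Of 6 genes reported here that supply NADPH, none rose or fell in both lines, and the list's median was -0.29 in OR1 and -0.15 in OR2. Of 18 genes for carbonyl and quinone reduction, 17 had a probe, 14 could be measured above background in every line, and AKR1B15 was the only one past a ratio in both lines. Of 7 genes for iron and heme, SLC48A1, a heme transporter, fell in both lines on its brighter probe (0.374 and 0.304), while its other probe gave 0.745 and 0.443, and 0 rose. FTH1 and FTL, the ferritin chains that store the iron released from heme, were at ratios of 0.949 and 0.863 and of 1.40 and 1.44, and were chosen here after their values were seen. Of 6 exporters of conjugates, ABCC3 fell in both lines on its brighter probe (0.246 and 0.348), while its other probe gave 0.817 and 0.898.

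Of 7 other NRF2 targets, JAKMIP3 rose in both lines (2.24 and 2.99), to 1.48 in OR1 with spike-in scaling, and its second probe was not well above background. PANX2, named after its values were seen, fell in OR1 on its brighter probe (0.428) and was at 0.761 in OR2. Its scaled intensity was low, 48.3 in H1975 and 20.7 in OR1. ATF4 is a stress factor that also drives SLC7A11. Of 13 genes of the ATF4 response, PHGDH, the entry enzyme of serine synthesis, fell in both lines (0.393 and 0.309) and none rose in either. In OR1, DDIT3 (0.474) and SESN2 (0.307) fell as well, 3 of the 13 in all, and in OR2 PHGDH was the only one. Of all genes tested, 9.58% were lower in OR1 and 8.70% in OR2. DDIT3 and SESN2 were named after their values were seen. Of 6 antioxidant enzymes outside the NRF2 list, SOD3, the extracellular superoxide dismutase, fell from a scaled intensity of 1550 (ratios 0.0566 and 0.107, the former 0.0974 with normexp), and MSRA, a methionine sulfoxide reductase, rose (3.25 and 2.67). Of the 89 genes of these 9 lists that were above background in at least 1 line, 6 (6.74%) rose and 5 (5.62%) fell in both lines, beside 5.09% and 6.32% of all genes. Among the 5 are AKR1B15, whose probe also lists the member AKR1B10, and SLC48A1 and ABCC3, which fell in both lines on their brighter probe only.

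Antioxidant response elements were looked for in the sequence before the members, from 250 bases before to 50 bases after the start of transcription in RefSeq annotation of GRCh38.p14. Promoters were found for 6 of the 9 members, 7 promoters in all, and those of HMOX1, SLC7A11 and AKR1B10 were not among them. The core TGACNNNGC was searched on both strands. It was present in 2 of these 6 members, GCLM and TXNRD1 (in both promoters of TXNRD1). Of 35116 promoters of the same length 13.3% held it, a share per promoter and not per gene. Sequence farther from the start was not searched, so a member without a match here may hold an element elsewhere. The AP-1 motif TGAGTCA, also searched on both strands, was in none of the 7 and in 4.95% of all promoters. The members with a core are shown from base -110 to base 20, with the matches in capitals. GCLM differed by less than the technical SD between the lines and TXNRD1 was higher in OR2. A relation between the core and expression was not tested.
GCLM, chr1:93909411-93909540, minus strand: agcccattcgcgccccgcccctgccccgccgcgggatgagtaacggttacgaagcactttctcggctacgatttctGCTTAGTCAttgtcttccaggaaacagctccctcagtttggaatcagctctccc
TXNRD1 promoter 1, chr12:104215669-104215798, plus strand: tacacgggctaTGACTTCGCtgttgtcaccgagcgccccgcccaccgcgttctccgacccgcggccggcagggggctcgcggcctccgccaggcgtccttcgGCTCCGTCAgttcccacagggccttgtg
TXNRD1 promoter 2, chr12:104286922-104287051, plus strand: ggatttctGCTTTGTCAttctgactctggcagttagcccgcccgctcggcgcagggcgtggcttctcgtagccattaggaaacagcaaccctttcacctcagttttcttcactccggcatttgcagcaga
The match in GCLM begins 34 bases before the start and reads on the reverse strand. In promoter 1 of TXNRD1 the matches begin 99 and 8 bases before the start, the latter on the reverse strand, and in promoter 2 the match begins 102 bases before it on the reverse strand. A match describes the letters of the window and is not a measured binding site.

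**Figure D5:**
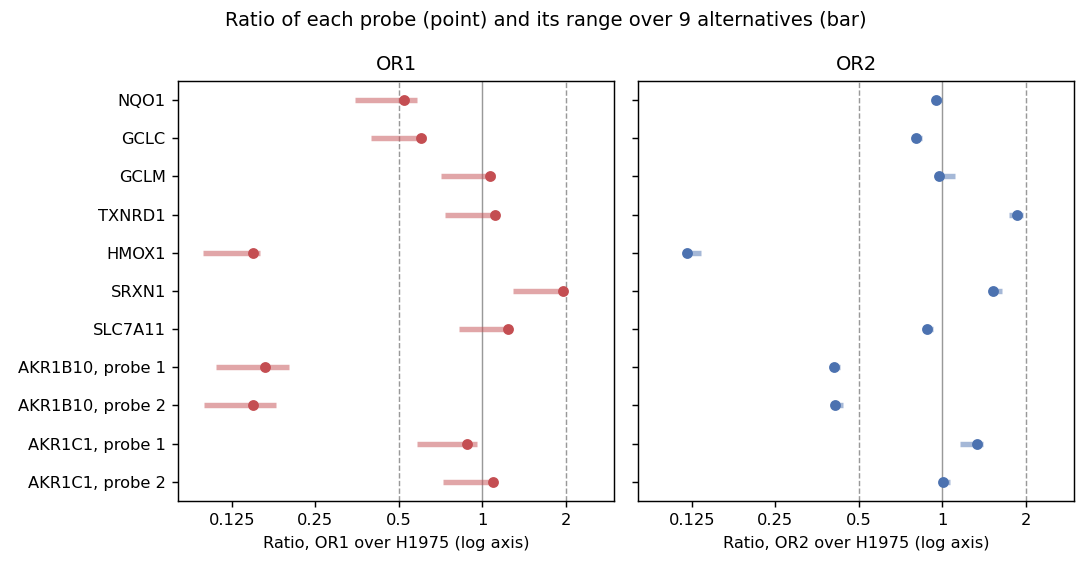
Ratio to H1975 of each of the 11 member probes well above background (points) and its range over 9 alternative scalings, background corrections and filters (bars), in OR1 and OR2, on a log axis. Dashed lines mark ratios of 0.5 and 2. The bars of HMOX1 and AKR1B10 stay left of 0.5, the bars of NQO1 and GCLC in OR1 cross it, and no bar crosses 2.

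The effect of the scaling on the members was confined mainly to OR1. With scaling on the spike-in probes, the median over all genes moved by -0.60 on the log2 scale for OR1 and by 0.08 for OR2. This scaling moves every gene of an array by the same factor, so that relative to this shift the members of OR1 kept their ratios. In OR2 the ratios of TXNRD1 ranged from 1.74 to 1.96, those of SRXN1 went up to 1.64 and those of NQO1 from 0.935 to 0.999 over the same alternatives.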

How the data were processed

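The authors deposited scanner output for 1 array per line, in which the intensity of each spot is corrected for background but not brought to a common scale, and a second table with normalized intensities whose method is not given in the sources used here. The submitters' processing notes name Agilent Feature Extraction 9.5.1.1, and the file headers name 10.7.1.1. Control spots and outlier spots (45 in H1975, 61 in OR1 and 46 in OR2) were dropped, repeated spots were averaged as log2 intensities, and arrays were scaled on the 75th percentile. Scaled intensities are put on the geometric mean of the 3 percentiles. The brightest probe stood for a gene. A value not well above background was set to the higher of itself and the lowest one on its array that was, giving a bound (lowest values: scaled 12.1, 12.6 and 11.9 in H1975, OR1 and OR2). The number of arrays limits the precision.

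The members and lists were chosen with earlier results of these data known. Named genes are all members and regulators, and from each other list those past 2 or 0.5 in both lines, at most 4. AKR1C3 and AKR1B1 were added as copies of members. AKR1C2 and GSTA1 had no probe under that name. The 5 genes nearest to the members' median were also named. Of the 12 member probes, 11 matched RefSeq with the same symbol. The position of a probe within exons and protein sequences were not analysed here. Some items of the lists and probe sequences are not reported here, and the lists are counted without them. Counting was tested on simulated data. The alternatives were 4 other scalings (quantile, median, none, 7 spike-in probes), normexp with an offset of 50, the authors' table (a median of 0.0013 from quantile-normalized log2 values), other filters, the median over probes, and ratios of 1.5 and 4. Python 3.11.15, numpy 2.4.6, pandas 2.3.3, matplotlib 3.10.9, R 4.3.3 and limma 3.58.1 were used.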

Additional observations from a re-analysis of the deposited data

Results flagged for a closer look

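Among members, regulators and the copies AKR1C3 and AKR1B1, 4 genes lay on opposite sides of a ratio of 1 in OR1 and OR2. The difference was not tested. Genes outside that group did so as well, such as NKX2-1 (0.252 in OR1 and 1.36 in OR2) and COL1A1 (1.45 and 0.183). GCLM was at 1.07 in OR1 and 0.972 in OR2, both within the technical SD of 0.20 on the log2 scale. SLC7A11 was at 1.24 in OR1 and 0.878 in OR2. AKR1C1 was at 0.880 in OR1 and 1.33 in OR2 on the probe that also lists AKR1C2, and at 1.09 and 1.01 on its own probe. AKR1B1 was at 1.01 in OR1 and 0.970 in OR2, again within the technical SD.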

How the results depend on the processing

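HMOX1 and AKR1B10 remained at or below 0.5 in both lines under all 10 alternatives that kept the ratio of the methods, and no member reached 2 under any of them. Scaling on the 7 spike-in probes gave 4 lower members in OR1 (NQO1, GCLC, HMOX1 and AKR1B10) and a median log2 ratio of -0.78 in OR1, beside a shift of all genes by -0.60. Median scaling and no scaling, which shifted all genes in OR1 by -0.11 and -0.19, added NQO1 to the lower members there, 3 in all. The share of all genes at or below 0.5 with these 3 scalings is not given here, so the added members are not set against other genes. Why the spike-in probes differ was not tested. At a ratio of 1.5, by construction a looser limit, 1 member was higher in OR1 (SRXN1), 2 in OR2 (TXNRD1 and SRXN1) and 1 in both lines, and 4 were lower in OR1. At a ratio of 4, the lower members were 1 in OR2 and 1 in both lines (HMOX1). The share of all genes past the ratios of 1.5 and 4 is not given here, so these counts describe the members only. Of 198 probe ratios under the alternatives, 185 moved by less than the technical SD and 13 by more. Of the 13, 11 were in OR1 with spike-in scaling and 2 (AKR1B10 in OR1, 0.200 and 0.180) with normexp. The background filters could not change these ratios, since the probes were well above background on every array. Keeping outlier spots left them as they were, and the authors' table nearly repeats quantile normalization. The 185 thus include settings that tested little. The planned comparison of protein sequences was not run. Signal near background limits AKR1C1, NFE2L2 and BACH2. No paired analysis was possible because each line has 1 array.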

Other observations

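The genes whose pair of log2 ratios lay nearest to the median of the members (over 2 ratios from 3 arrays, distance at most 0.013) were FUK, RPL13AP17, UIMC1, CEP44 and PPT1, at ratios from 0.874 to 0.888 in OR1 and from 0.945 to 0.950 in OR2. For HMOX1 and AKR1B10 the nearest genes were looked up after the values were seen. Those nearest to HMOX1 were XLOC_l2_007543, lnc-SMC1B-3, XAF1, CBR3-AS1 and CA14, with ratios from 0.129 to 0.160 in OR1 and from 0.114 to 0.130 in OR2. The gene nearest to AKR1B10 was CLDN4, a tight junction claudin, at 0.172 in OR1 and 0.405 in OR2 (distance 0.058), followed by LINC01138, ARPC1B, FAM174B and YBX2.

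Genes past a ratio in a single line, also picked after their values were seen, included GPX3, a secreted glutathione peroxidase, at 5.25 in OR1 and 1.63 in OR2. IDH1, which makes NADPH in the cytosol, was at 0.453 in OR1 and 0.574 in OR2. GSTP1, the pi-class transferase, was at 0.783 in OR1 and 0.456 in OR2. SESN2, a stress-induced sestrin, was at 0.307 in OR1 and 0.654 in OR2. ABCG2, a drug exporter, was not called past a ratio to H1975 in either line (at most 0.505 in OR1, 1.69 in OR2). It lay near background, at 24.9 in H1975 and 42.0 in OR2. In OR1 it was not well above background, and OR2 was at least 3.35 times as high as OR1.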
